A study of Drosophila melanogaster with 6 samples.

Results

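The foreleg of the male pupa was compared with that of the female at 12 h after puparium formation, gene by gene, from RNA of single cells; the tissue is the tarsal segment nearest the body in Drosophila melanogaster. The comparison used the male and the female library of that age, both from the cross dsx-GAL4 > UAS-mCherry, in which the GAL4 driver follows the sex-determination gene dsx and switches on a red fluorescent reporter. Droplet barcodes were kept with at least 500 detected genes and at most 10% of unique molecular identifiers (UMIs, tags that count RNA molecules once) from mitochondrial genes, which left 11646 male and 11879 female cells, 23525 of the 71346 cells of the series that pass the same limits. The series holds 6 labelled libraries. The other 4 are males at 16 h (dsx-GAL4 > UAS-GFP), at 20 h and at 36 h (both dsx-GAL4 > UAS-mCherry) and a female at 24 h of the strain RAL-517. Pupae were sexed as white prepupae and aged at a constant temperature, and the segments of several animals, 65 to 70 of them, were pooled for a library. Legs were cut at the joint with the tibia and again within the next tarsal segment, so each library also holds some of that segment. Each sex at 12 h is therefore 1 library, so no test between the sexes exists, and every interval below covers counting error only, not the spread between animals.

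In flies, sex is set cell by cell from the number of X chromosomes. The switch gene Sxl is active in females, directs the splicing of tra, and so determines which form of the transcription factor dsx is made, while in males the dosage compensation complex, which contains the roX RNAs and Msl-2, raises transcription of the single X. The first tarsal segment of the male foreleg later carries the sex comb, a row of thick bristles that the female lacks, and at the age studied here the leg has everted, its cells still divide, and the ecdysone pulses of metamorphosis direct the next steps.

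Levels are UMIs summed over the cells of a library and scaled to one fixed total per library, the usual CPM unit. The male cells held 142384705 UMIs and the female cells 141395526, with medians of 11209 and 10360 UMIs and 1972.5 and 1917 genes per cell. Cells with under 2000 UMIs made up 20.1% of the male and 12.0% of the female cells, and 37 cell barcodes were found in both libraries. A gene was compared when the library in which it was higher held at least 200 UMIs of it, and it is said to be past 2-fold when its log2 ratio of male to female CPM, with 0.5 counts added to both sums, was at least 1 or at most -1. A level of 0 is read against 3 counts, equal to 0.0211 CPM for the male and 0.0212 CPM for the female.

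The comparison was made over all cells and again in cells without markers, meaning cells with fewer than 2 different markers of any of 4 classes (hemocytes, which are the blood cells, muscle, glia and neurons; 25 markers in all). This left 8350 male cells (71.7%, 95% Clopper-Pearson interval 70.9 to 72.5) and 7398 female cells (62.3%, 61.4 to 63.2), with medians of 9668 and 8503.5 UMIs. The gate was not neutral to ordinary leg cells. The muscle marker Mef2 was found in 53.8% of all male and 63.9% of all female cells, and the glial marker nrv2 in 71.5% and 74.7%, so that cells with these and 1 further marker were set aside too. The remaining cells carried the epithelial markers: shg, which encodes E-cadherin, had 99.5 CPM in the male and 139 CPM in the female, and the apical determinant crb at 195 and 333 CPM.

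Most genes were close between the sexes. Over all cells 7890 genes were compared, of which 208 (2.64%) were past 2-fold with the higher level in the male and 386 (4.89%) with the higher level in the female, 7.53% together. In cells without markers 7084 genes were compared, and 60 (0.847%) were past 2-fold higher in the male against 251 (3.54%) in the female, 4.39% together. Of those called in cells without markers, 49 of the male-higher and 200 of the female-higher genes were also called over all cells. The minimum was reached in 1 sex only by 26 of the 60 and 107 of the 251. In cells without a UMI of any marker, 1218 male and 842 female, the order turned, with 21 genes past 2-fold higher in the male and 16 in the female of 1559 compared. With the gate at 2 markers, male-higher genes made up 19.3% of the calls, 31.6% under TMM scaling and 36.0% under median-of-ratios scaling, which subtract -0.0885 and -0.116 from every log2 ratio. The genes called were usually found in few cells, with a median of 5.96% of male cells for the male-higher and 5.79% of female cells for the female-higher, beside medians of 16.2% and 14.9% over all genes compared.

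**Figure D1:**
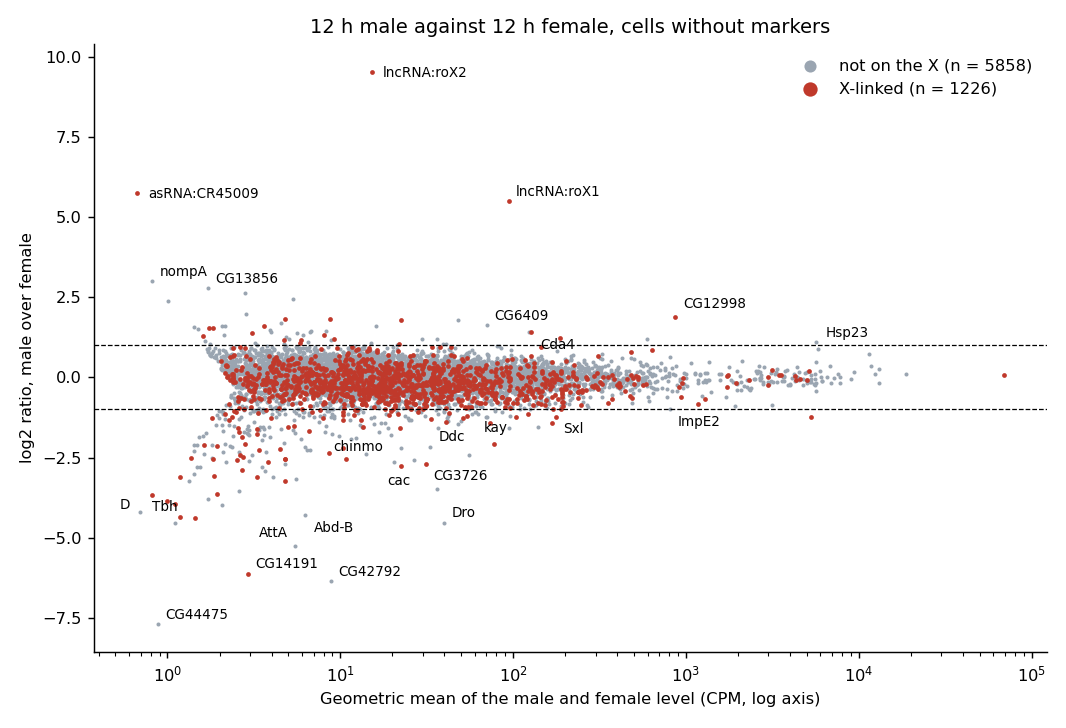
The log2 ratio of male to female CPM (vertical axis) is plotted against the geometric mean of the levels (horizontal log axis, CPM) for the 7084 genes compared in cells without markers, with X-linked genes in red and dashed lines at 2-fold. Most points lie between the lines, roX1, roX2 and asRNA:CR45009 stand far above them, and the female-higher genes reach further from 0 and are more numerous than the rest of the male-higher ones.

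The cell classes themselves differed in size. With a stricter rule for membership (3 markers of a class and more than of any other), hemocyte-marker cells were 3.98% of male cells (interval 3.63 to 4.35) and 1.60% of female cells (1.38 to 1.84). Muscle-marker cells were 2.10% of male cells (1.85 to 2.38) and 4.26% of female cells (3.90 to 4.64). Glia-marker cells were 2.16% of male and 1.67% of female cells, and neuron-marker cells 3.20% and 4.02%. At 2 markers, the rule that sets cells aside, the order for glia turned, with 10.3% of male and 11.3% of female cells, and the neuron shares were 9.74% and 15.6%. In sums over all cells, fewer cells of a type and less RNA per cell cannot be told apart. NimC1, a phagocytosis receptor of hemocytes, stood at 4.51 CPM over all male and 1.71 CPM over all female cells, and Pxn, the hemocyte-made peroxidasin, at 11.8 and 4.96 CPM. Him, an inhibitor of muscle differentiation, went the other way, with 40.2 CPM in the male and 194 CPM in the female. All 5 compared hemocyte markers were on the male side over all cells, and both of the markers compared in cells without markers were on the female side. In the latter cells the 7 hemocyte markers summed to 7.20 CPM in the male and 10.0 CPM in the female, and the 6 muscle markers to 107 and 156 CPM.

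The genes of sex determination differed less than the RNAs at their ends. roX1 stood at 636 CPM in male and 14.0 CPM in female cells without markers, and roX2 at 415 and 0.551 CPM. A UMI of roX2 was found in 73.9% of male cells and 0.5% of female cells. Sxl was the only one of the 12 compared sex-determination genes past 2-fold, beside 3.54% of all compared genes higher in the female. Sxl had 117 CPM in the male and 272 CPM in the female. tra, its splicing target, had 29.9 and 41.6 CPM (log2 ratio -0.47), and the tra partner tra2 had 55.9 and 52.6 CPM. dsx had 79.7 and 70.1 CPM (log2 ratio 0.18). In the dosage compensation complex 3 of 8 genes were past 2-fold, roX1, roX2 and msl-2. All 3 were higher in the male, beside 0.847% of all compared genes. msl-2, whose translation Sxl represses in females, had 9.66 CPM in the male and 3.86 CPM in the female. The acetyltransferase gene mof had 6.52 and 4.25 CPM (log2 ratio 0.62), whereas the helicase gene mle was on the female side with 16.6 and 23.0 CPM (log2 ratio -0.47), and msl-1 differed little with 12.6 and 13.5 CPM. Of 51 Y-linked genes in the files none reached the minimum, and their UMIs over all cells summed to 150 for the male and 130 for the female, most of them from WDY, with 93 and 81.

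X-linked genes lay below autosomal genes on the male side of the scale. In cells without markers the median log2 ratio was -0.18 over 1226 X-linked genes and 0.04 over 5811 autosomal genes, a difference of -0.22. Over all cells the medians were -0.15 and 0.09, a difference of -0.24. The 4 large autosome arms had medians between 0.02 (2R) and 0.07 (2L) in cells without markers. The difference was below 0 under every alternative setting run, between -0.17 and -0.27. In cells without markers 6.12% of X-linked genes were past 2-fold higher in the female, beside 3.03% of autosomal genes, and 1.63% against 0.688% were higher in the male. The male median of the X thus corresponded to 0.882 of the female level, and the X supplied 18.6% of male and 19.5% of female UMIs.

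The ratio also followed the length of the gene. Across the 7050 located genes compared in cells without markers, the Spearman correlation of the log2 ratio with the span from annotated start to end was -0.53, a description across genes of the same 2 libraries. In 5 equal groups of genes from the shortest to the longest span, the median log2 ratio went 0.27, 0.21, -0.0008, -0.18 and -0.31. The longest group, from 9247 bp, held 135 of the female-higher calls and 4 of the male-higher calls. The median span was 10958 bp for the female-higher genes, 1705.5 bp for the male-higher genes and 2875 bp for the others. The 703 intronless genes had a median log2 ratio of 0.19, and the 922 genes with at least 10000 bp of intron had -0.33. The sources used here do not say whether intronic reads were counted, and the part of RNA processing state in these values was not tested. X-linked genes were below autosomal genes in each group, by -0.22, -0.14, -0.14, -0.14 and -0.34. Where a list below holds mostly long genes, its median is also given after the median of each gene's span group was subtracted, an alternative chosen after seeing the data.

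**Figure D2:**
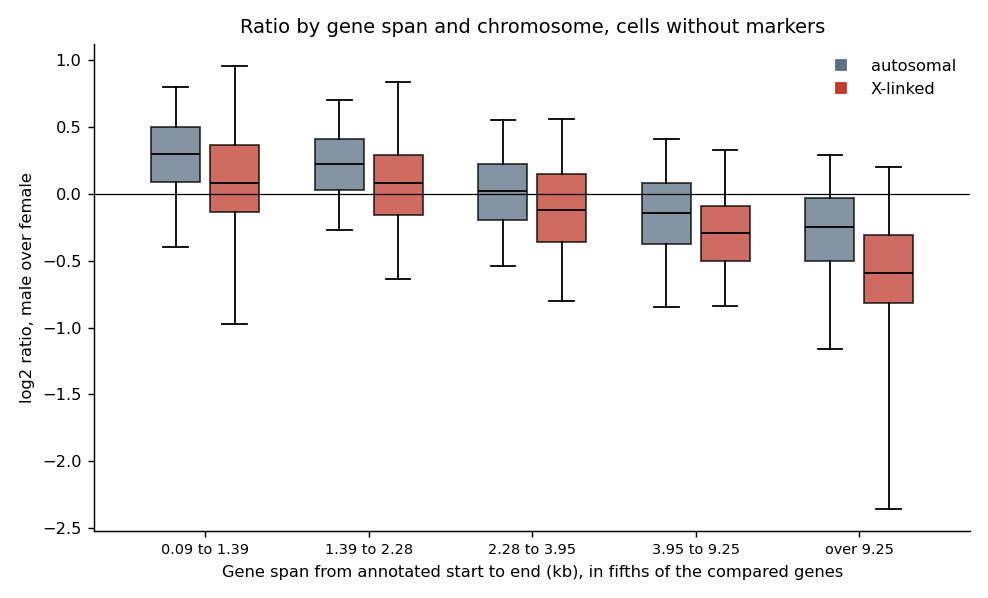
Boxes show the quartiles and median of the log2 ratio of male to female CPM (vertical axis) in cells without markers, with whiskers from the 5% to the 95% quantile, for autosomal (grey) and X-linked (red) genes in 5 equal groups of gene span (horizontal axis, kb). Both sets fall from left to right, and the X-linked median lies below the autosomal one in every group.

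Beyond roX1 and roX2, the largest male-higher ratio in cells without markers belonged to the noncoding gene asRNA:CR45009 on the X, with 449 UMIs in the male and 6 in the female (4.97 and 0.0848 CPM, log2 ratio 5.76, interval 4.74 to 7.33). It overlaps FucTC on the opposite strand, and since strand use in counting is not stated the reads of the pair cannot be separated with certainty, although FucTC itself had 0.0443 and 0 CPM. CG12998, which had more UMIs than any male-higher gene but Hsp23, lies at chrX:17218667-17219787 on the plus strand (BDGP6). It had 1647 CPM in the male and 449 CPM in the female (log2 ratio 1.87, interval 1.86 to 1.89) and was found in 75.5% of male and 44.2% of female cells. When each cell was thinned to 2000 UMIs these shares were 42.5% and 20.4%. Its neighbour f, 13154 bp downstream, encodes the actin-bundling protein Forked of bristles and hairs and was on the other side, with 1.16 and 2.83 CPM.

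Other broadly found genes were higher in the male by smaller ratios. Cda4, which encodes a chitin deacetylase-like protein, had 206 CPM in the male and 77.8 CPM in the female and was found in 60.3% and 36.4% of cells. CG2145 had 16.5 and 4.66 CPM, CG3699 had 41.8 and 12.1 CPM, and CG6409 had 124 and 40.3 CPM, each in a larger share of male than of female cells. CG13857 (202 and 75.4 CPM) and CG13856 (4.54 and 0.650 CPM) lie 8550 bp apart on 3R and were both male-higher, with 58.5% of the male UMIs of CG13856 in 10 cells. The cuticle protein gene Ccp84Aa had 54.7 CPM in the male and 23.7 CPM in the female. Of 16 compared genes of cuticle and apical matrix it was the only male-higher call, beside 0.847% of all compared genes. The same list had 1 female-higher call, f, beside 3.54% of all compared genes, and f reached the minimum in the female alone.

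Several male-higher genes were the product of few cells. nompA, which encodes a protein of the cap that links sensory dendrites to the cuticle, had 209 male and 20 female UMIs (log2 ratio 3.002, interval 2.37 to 3.78), 61.7% of the male ones in 10 cells. The tubulin gene alphaTub85E had 7.001 and 1.12 CPM, with 85.8% of its male UMIs in 10 cells, and its log2 ratio of 2.64 became -0.0013 once cells with high doublet scores were removed. CG13305 had 12.5 and 2.26 CPM with 74.5% of its male UMIs in 10 cells. CG4914 had 5.66 and 1.44 CPM and overlaps ome on the opposite strand, which had 9.50 and 26.0 CPM. Its ratio turned to -0.27 in cells without a UMI of any marker. CG1628 (8.995 and 2.53 CPM) was spread more widely, over 7.87% of male and 2.30% of female cells. The last of the leading male-higher genes, snmRNA:CR43701, had 2.30 and 0.438 CPM and lies inside stet on the opposite strand.

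The posterior Hox gene Abd-B, which specifies posterior abdominal segments and genital structures, was higher in the female. It had 126 UMIs in the male and 1961 in the female cells without markers, which is 1.396 CPM (interval 1.16 to 1.66) and 27.7 CPM (26.5 to 29.0), a 19.8-fold difference. It was found in 1.28% of male and 17.5% of female cells, and in 0.275% and 4.75% after thinning to 2000 UMIs. Only 2.96% of its female UMIs came from the 10 cells richest in them. Of the 3 compared Hox genes Abd-B was the only one past 2-fold, beside 3.54% of all compared genes higher in the female. It reached the minimum in the female alone. Scr, the Hox gene of the first thoracic segment, had 230.5 CPM in the male and 204 CPM in the female, and Antp had 8.72 and 11.0 CPM. Ubx (0.122 and 0.593 CPM), lab (0.0997 and 0.452 CPM) and pb (0.155 and 0.678 CPM) were also higher in the female, but none of them reached the minimum, and abd-A, the neighbour of Abd-B in the Hox cluster, had 0 and 1 UMI.

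Among the female-higher genes found in at least 10% of female cells, cac, the pore-forming subunit of a presynaptic calcium channel, had 8.71 CPM in the male and 58.6 CPM in the female, in 7.31% and 24.9% of cells. chinmo, a zinc finger factor of temporal identity, stood at 8.21 and 51.2 CPM, in 6.56% and 29.5% of cells. CG3726 had 12.2 and 79.7 CPM, CG12535 had 1.57 and 14.7 CPM, CG3168 had 4.43 and 26.2 CPM, and CG1299 had 11.0 and 65.1 CPM. cac, CG3726, CG12535 and CG3168 are X-linked, and all but CG1299 lie in the group of longest span. CG12535 overlaps a noncoding gene, lncRNA:CR44999, over 61000 bp of the opposite strand, which had 3.80 and 19.4 CPM.

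More of the largest female-higher ratios belonged to genes of restricted expression. Tbh, the enzyme of octopamine synthesis, had 28 male and 467 female UMIs in cells without markers (log2 ratio -4.39, interval -5.02 to -3.86). The potassium channel gene SK had 23 and 377 UMIs, jeb, which encodes a secreted ligand of the receptor Alk, had 20 and 377, and the SoxB factor gene D had 14 and 210. CG14191, at chrX:19081665-19082566, had 31 and 1730 UMIs, 52.3% of the latter in 10 cells. CG4607 had 25 and 308 UMIs (0.277 and 4.35 CPM). It lies at chrX:7069413-7072689 on the plus strand, 1860 bp from the end of Sxl, which is transcribed toward it from the minus strand. The pair with the largest ratios, CG44475 (5 and 901 UMIs) and CG42792 (88 and 5706 UMIs), lies 17321 bp apart on 2L, and all female UMIs of CG44475 and 98.9% of those of CG42792 came from 10 cells. Over all cells their log2 ratios were -1.76 and -0.77, the latter within 2-fold. The muscle marker Him and the neuron markers Syt1 and brp were also past 2-fold higher in the female in these cells, at 1.97 and 11.6 CPM for Him, 1.15 and 5.85 CPM for Syt1 and 2.17 and 4.54 CPM for brp, which was within 2-fold under both other scalings. All 3 are markers of the gate that chose these cells, and each reached the minimum in the female alone. The part of such cells in the female-higher genes was not tested.

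Antimicrobial peptide genes were higher in the female. These encode secreted peptides that the Toll and IMD pathways induce upon infection or injury. Of 18 in the files 7 were compared in cells without markers. All 7 were past 2-fold higher in the female, beside 3.54% of all compared genes. Their median log2 ratio was -2.40, beside 0.0065 over all genes. AttA, Mtk and edin among them reached the minimum in the female alone. The drosocin gene Dro had 8.32 CPM in the male and 192 CPM in the female, a 23.1-fold difference, and was found in 2.10% and 14.4% of cells, or 0.680% and 8.06% after thinning. AttA, an attacin gene 647 bp away, had 0.875 and 33.9 CPM. The drosomycin gene Drs had 6.14 and 32.4 CPM, AttD had 10.5 and 48.4 CPM, and the metchnikowin gene Mtk had 0.510 and 8.21 CPM. Over all cells 10 of 12 were past 2-fold higher in the female, beside 4.89% of all compared genes. The share of female cells with a Dro UMI was 17.4% in hemocyte-marker, 13.4% in muscle-marker and 24.3% in neuron-marker cells beside 14.4% in cells without markers, and whether free RNA in the suspension supplied part of it was not tested.

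The receptors and the pathway genes moved less. Of 14 compared immune recognition and signalling genes 3 were past 2-fold, all higher in the female, beside 3.54% of all compared genes, with a median log2 ratio of -0.44. PGRP-SA, a receptor for Gram-positive peptidoglycan in the Toll pathway, had 1.97 CPM in the male and 11.4 CPM in the female. PGRP-SC2, an amidase, had 1.65 and 8.28 CPM, and both genes reached the minimum in the female alone. Rel, the NF-kB factor of the IMD pathway, had 20.5 and 46.8 CPM. Closer levels were found for key (30.8 and 33.6 CPM) and imd (18.0 and 14.6 CPM) of the IMD pathway, and for cact (51.0 and 59.1 CPM) of the Toll pathway.

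Genes of JNK signalling, stress and wound repair were also higher in the female. Of 16 compared in cells without markers 7 were past 2-fold, all in that direction, beside 3.54% of all compared genes, and 14 lay on the female side, with a median log2 ratio of -0.66 (-0.68 after subtraction by span). Of the pathway itself, the Fos gene kay had 42.4 CPM in the male and 93.5 CPM in the female and the feedback phosphatase gene puc had 39.8 and 59.7 CPM (log2 ratio -0.58), whereas the kinase gene bsk had 73.7 and 68.8 CPM. Of the induced genes, the matrix metalloprotease gene Mmp1 had 10.5 and 36.7 CPM, the factor gene Ets21C had 0.499 and 4.06 CPM, and the cytokine gene upd2 had 1.79 and 6.08 CPM. ple and Ddc, successive enzymes of dopamine synthesis used in wound and cuticle hardening, had 1.86 and 16.6 CPM for ple and 15.6 and 69.5 CPM for Ddc. Ets21C, upd2 and ple reached the minimum in the female alone. Ddc was found in 6.24% of male and 26.0% of female cells. The cell death gene rpr had 28.6 and 62.8 CPM, and its partner hid had 323 and 395 CPM. Timp, the inhibitor of Mmp1, was higher in the female too, with 3.40 and 8.51 CPM.

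DNA replication genes lay on the male side without passing 2-fold. None of 16 compared in cells without markers was past 2-fold, 13 were on the male side, and the median log2 ratio was 0.34 (0.31 after subtraction by span). A split of 13 to 3 was also found under both other scalings, where RnrS alone was past 2-fold. RnrS, the small subunit of ribonucleotide reductase, had 117 CPM in the male and 59.3 CPM in the female (log2 ratio 0.98) and passed 2-fold over all cells. Its large subunit gene RnrL had 60.1 and 40.9 CPM, the sliding clamp gene PCNA had 390 and 259 CPM, and the helicase gene Mcm5 had 35.7 and 24.8 CPM. E2f1, which drives these genes, was on the other side with 107 and 144 CPM (log2 ratio -0.43). Of 19 mitosis genes 14 were on the male side with a median of 0.14, among them the Cdc20 homologue fzy (48.7 and 27.5 CPM), the kinase gene aurA (45.5 and 28.9 CPM) and the cyclin gene CycB (110 and 71.3 CPM). The Cdc25 phosphatase gene stg, which times entry into mitosis, had 529 and 578 CPM. The cell cycle exit genes had a median of 0.20 over 7, with 5 on the male side.

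The ecdysone pathway was on the female side in cells without markers, in 15 of 15 compared genes, none past 2-fold, with a median log2 ratio of -0.34. After subtraction by span the median was -0.06. Most of these genes lie in the group of longest span. Under TMM and median-of-ratios scaling 14 of 15 were on the female side, with medians of -0.26 and -0.23. The receptor gene EcR had 283 CPM in the male and 335 CPM in the female, the early gene Eip75B had 297 and 327 CPM, and ftz-f1, the competence factor of the prepupa, had 21.9 and 31.0 CPM. The nuclear receptor genes Hr3 and Hr38 did not reach the minimum in these cells. Over all cells they were past 2-fold higher in the female, the 2 calls among 17 compared genes, beside 4.89% of all genes. Hr3 had 0.562 and 3.28 CPM (log2 ratio -2.54) and Hr38 had 0.646 and 2.50 CPM (-1.95). Hr3 and Hr38 each reached the minimum in the female alone. The list of ecdysone-inducible Imp genes, Sb and Edg genes split by member, with 2 of 9 past 2-fold, Sb and ImpE1. Both were higher in the female, beside 3.54% of all compared genes. Sb, a membrane protease needed for leg elongation, had 7.72 and 21.7 CPM (log2 ratio -1.49), ImpE1 had 5.02 and 11.7 CPM (-1.22) and ImpE2 had 576 and 1150 CPM (-0.997). Edg84A, a pupal cuticle gene, had 595 and 389 CPM (0.61), and Edg78E had 141 and 118 CPM (0.26).

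Patterning genes of the leg were mostly close. Of 21 compared proximodistal genes 2 were past 2-fold higher in the female, beside 3.54% of all compared genes. Both are markers of the proximal leg. tsh had 1.05 CPM in the male and 4.42 CPM in the female, and hth had 1.44 and 4.11 CPM. Both reached the minimum in the female alone. Over all cells tsh had a log2 ratio of -1.43 and hth one of -0.58, within 2-fold. hth was found in 0.695% and 1.95% of cells, and 46.4% of its female UMIs came from 10 cells. Genes of the tarsus had smaller ratios. Dll had 349 and 405 CPM, dac had 125 and 171 CPM, bab2 had 51.1 and 68.1 CPM, and the X-linked Sp1 had 1017 and 1617 CPM (log2 ratio -0.67). The list median was -0.21, and 0.08 after subtraction by span. Of the compartment and dorsoventral genes none of 11 was past 2-fold in cells without markers. The Hedgehog receptor and target ptc had 77.9 and 153 CPM (log2 ratio -0.97), while its ligand hh had 63.7 and 57.8 CPM and the effector ci had 134 and 116 CPM. Adhesion and planar polarity genes were on the female side in 14 of 15 cases with none past 2-fold, with a median of -0.33, or -0.05 after subtraction by span. Under TMM scaling 12 and under median-of-ratios scaling 11 were on the female side.

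Heat shock genes divided. Hsp23, a small heat shock protein, had 8305 CPM in the male and 3872 CPM in the female cells without markers (log2 ratio 1.10), and Hsp70Bb had 9.43 and 4.42 CPM (1.09), although reads of the near-identical Hsp70 copies may be split between them. The other small heat shock genes were closer, with 7732 and 6044 CPM for Hsp26 and 12386 and 13909 CPM for Hsp27. The chaperone gene Hsp83 was on the female side with 2340 and 4229 CPM (log2 ratio -0.85). So were the co-chaperone gene stv with 113 and 221 CPM (-0.97) and the factor Hsf with 46.5 and 80.4 CPM (-0.79). Of 15 compared, 2 were past 2-fold, both higher in the male, beside 0.847% of all compared genes. The median was 0.12. The sensory organ list had 1 call among 10 compared genes, nompA, higher in the male, beside 0.847% of all compared genes. nompA reached the minimum in the male alone. The early members of this list, sens (15.2 and 13.1 CPM), ac (8.72 and 9.42 CPM) and sc (22.1 and 27.0 CPM), were close.

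**Figure D3:**
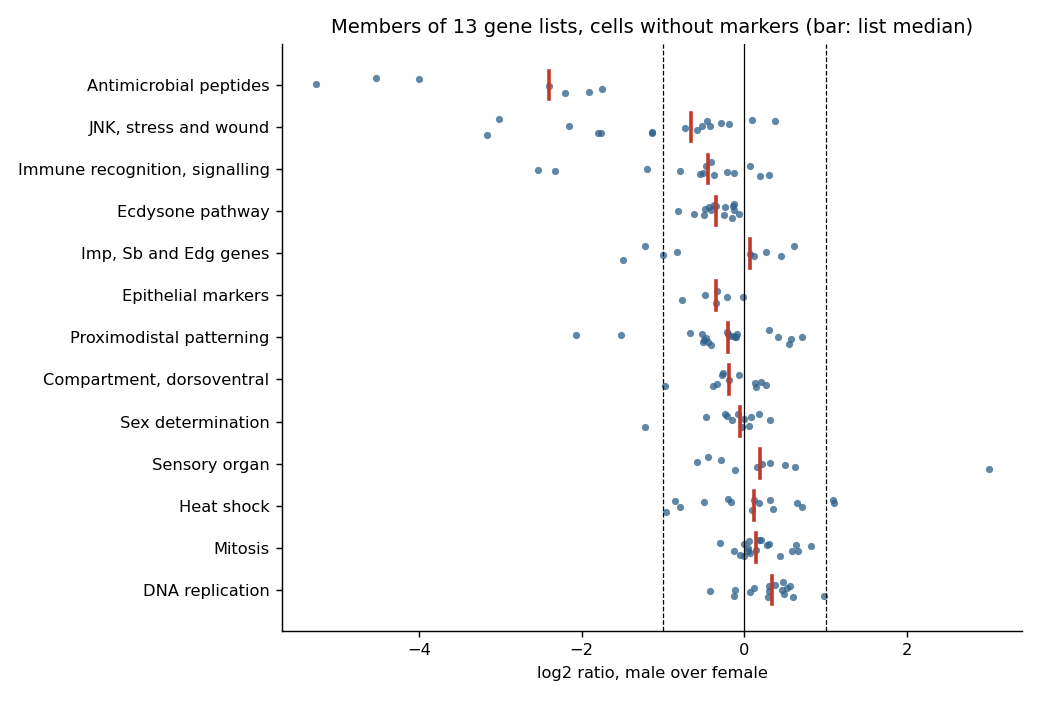
Each point is 1 compared gene of 13 lists, placed by its log2 ratio of male to female CPM in cells without markers (horizontal axis), with a red bar at the median of its list and dashed lines at 2-fold. The antimicrobial peptide genes all lie left of the lower line with a median of -2.40, the ecdysone pathway genes lie left of 0 but within 2-fold, and the DNA replication genes are centred at 0.34.

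The remaining lists held few calls in cells without markers. Mmp1 and Timp were the calls among 10 matrix remodelling genes, beside 3.54% of all compared genes higher in the female. There was no call among 15 Notch pathway genes (median -0.06, but 0.03 and 0.06 under the other scalings), 13 EGFR pathway genes (-0.24) or 11 JAK-STAT and Hippo genes (-0.17). None was called among 12 glycolysis genes (-0.05, but 0.04 and 0.07), 20 oxidative phosphorylation genes (0.04) or 6 epithelial markers (-0.34). The same held for 3 tendon markers (0.71), 2 tracheal markers (-0.26) and 2 glial markers (0.30). In the same order the medians after subtraction by span were -0.07, 0.06, 0.08, -0.006, -0.06, -0.04, 0.89, -0.02 and 0.39. The hemocyte marker srp (1.65 and 4.03 CPM) and, in the list of yolk and sex-terminal genes, Ddc were called in the female direction. srp is also a marker of the gate and reached the minimum in the female alone. Over all cells srp had 10.8 CPM in the male and 7.38 CPM in the female. Of the fat body list 1 gene was compared (log2 ratio -0.66), and of the oenocyte, gut and salivary list none.

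The class-by-class values showed where the differences held. In hemocyte-marker cells 50 of 2857 compared genes (1.75%) were past 2-fold higher in the male and 157 (5.5%) in the female, 7.25% together. The counts were 20 (0.689%) and 204 (7.03%) of 2901 in muscle-marker cells and 16 (0.968%) and 44 (2.66%) of 1653 in glia-marker cells. In neuron-marker cells they were 149 (4.06%) and 367 (10%) of 3670. Male and female cells held 7268644 and 2440768 UMIs in the hemocyte, 4021469 and 8428920 in the muscle class. They held 3315349 and 2838955 in the glia and 6260510 and 10779138 in the neuron class. Genes reach the minimum more easily in the deeper sex, so the 2 directions are not on an equal footing. moody, a marker set for glia, was higher in hemocyte-marker cells (160 CPM in the male, 158 CPM in the female) than in glia-marker cells (89.9 and 127 CPM). It still counted toward the glia class. The muscle marker Him had 272 CPM in male and 850 CPM in female glia-marker cells, beside 917 and 2223 CPM in muscle-marker cells. The neuron markers themselves differed between male and female neuron-marker cells. fne had 1068 and 414 CPM, nSyb had 74.1 and 33.1 CPM, and onecut had 65.6 and 19.3 CPM. elav and Appl were also higher in the male, whereas Syt1 (29.1 and 41.7 CPM) and brp (18.8 and 31.7 CPM) were higher in the female. The part of class content in the counts and ratios of neuron-marker cells was not tested. Hsp23 was past 2-fold in every one of the 4 classes, higher in the male, with log2 ratios between 1.69 and 1.88, and so was Hsp70Bc, between 1.84 and 2.31. RnrS had log2 ratios of 0.68 to 1.04 in them. The Hsp70Bc ratio in cells without markers was 0.71.

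Antimicrobial RNA was concentrated in hemocyte-marker cells in both sexes. AttD had 1050 CPM in the male and 4002 CPM in the female hemocyte-marker cells, Drs at 567 and 2105 CPM and Mtk at 73.9 and 946 CPM. Dro differed from these, with 11.7 and 112 CPM in hemocyte-marker cells and 2.24 and 313 CPM in neuron-marker cells. Hsp67Bc, a small heat shock gene, was 1190 CPM in male and 112 CPM in female hemocyte-marker cells, beside 415 and 390 CPM in cells without markers. In neuron-marker cells the male-higher genes were led, after the roX RNAs, by CG14020 (50.2 and 7.24 CPM) and the intraflagellar transport gene IFT20 (44.6 and 7.98 CPM), and the female-higher by the odorant-binding protein gene Obp99a (0.958 and 148 CPM). Abd-B was compared in neuron-marker cells too, with 9 UMIs in the male and 364 in the female. In female neuron-marker cells roX1 reached 55.2 CPM, above its 14.0 CPM in female cells without markers.

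**Figure D4:**
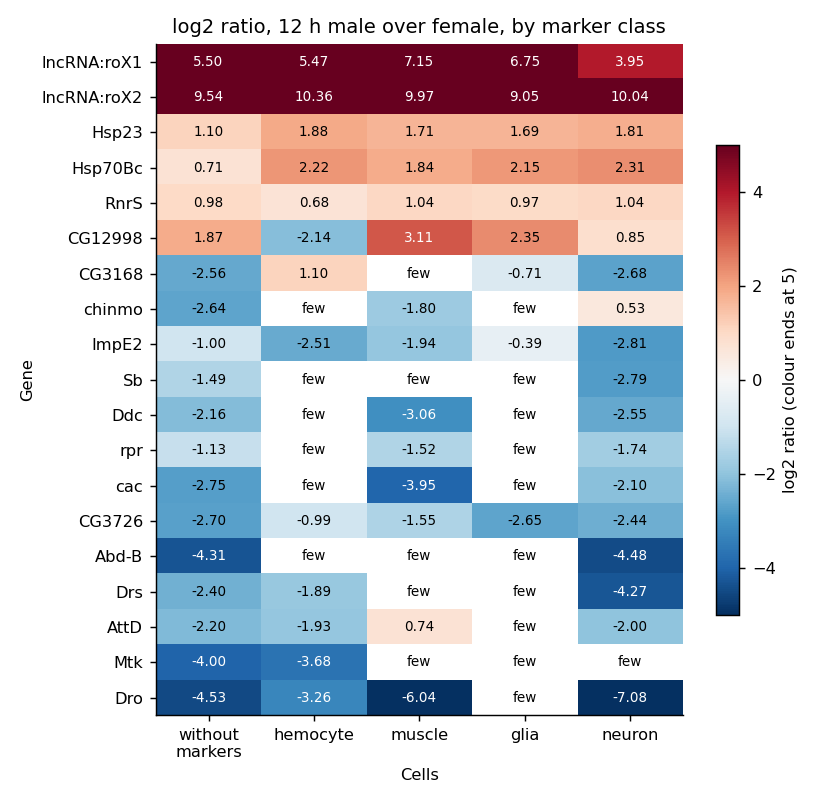
Cells of the grid give the log2 ratio of male to female CPM for 19 genes (rows) in cells without markers and in the 4 marker classes (columns), coloured red where the male and blue where the female was higher, with "few" where neither library held 200 UMIs. Hsp23, Hsp70Bc and RnrS are red in every column, CG3726 is blue in every column, and CG12998 changes colour in hemocyte-marker cells.

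The 4 libraries of other ages gave a view of the called genes in samples that the comparison did not use, with age, strain and reporter differing between them. For each gene it was asked whether the 16 h, 20 h and 36 h males all lay above, or all below, the 24 h female in cells without markers. Of the 60 male-higher genes, 33 (55.0%) had all 3 males above, beside 11.2% of all 7084 compared genes. Of the 251 female-higher genes, 36 (14.3%) had all 3 males below, beside 35.0% of all genes, and 87 (34.7%) had all 3 above. Over all cells the share was smaller for the male-higher genes: 19.2% of 208 had all 3 males above, beside 10.4% of all 7890 compared genes, and 35.6% had all 3 below, beside 33.6%. The 36 female-higher genes with the same order were mostly X-linked, 27 of them (75%), beside 22.0% of the 2476 compared genes with that order and 29.9% of all 251.

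Single genes show both outcomes. msl-2 had 9.01, 7.02 and 4.09 CPM in the 16 h, 20 h and 36 h males and 3.87 CPM in the 24 h female. asRNA:CR45009 had 0.763, 7.68 and 8.17 CPM in these males and 0.0781 CPM in the female. Hsp23 had 5727, 9686 and 8940 CPM and 3541 CPM. CG12998 was lower in each of these libraries than in the 12 h female, with 295, 5.25 and 1.24 CPM in the males and 0.888 CPM in the 24 h female. On the female-higher side, CG4607, the neighbour of Sxl, had 0.458, 0.503 and 0.437 CPM in the males and 1.13 CPM in the 24 h female, and Sxl itself 105, 153 and 199 CPM and 275 CPM. CG3726 had 25.0, 78.7 and 77.0 CPM in the males and 90.1 CPM in the female. Abd-B did not keep its order, with 6.95, 7.78 and 3.85 CPM in the males and 3.06 CPM in the 24 h female, all far under the 27.7 CPM of the 12 h female. Dro reached 281 CPM in the 20 h male, above the 192 CPM of the 12 h female, beside 4.12 CPM and 12.7 CPM in the 16 h and 36 h males and 3.76 CPM in the 24 h female. ple and Ddc, too, were higher in the 20 h male (55.6 and 56.5 CPM) than in the 12 h male.

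**Figure D5:**
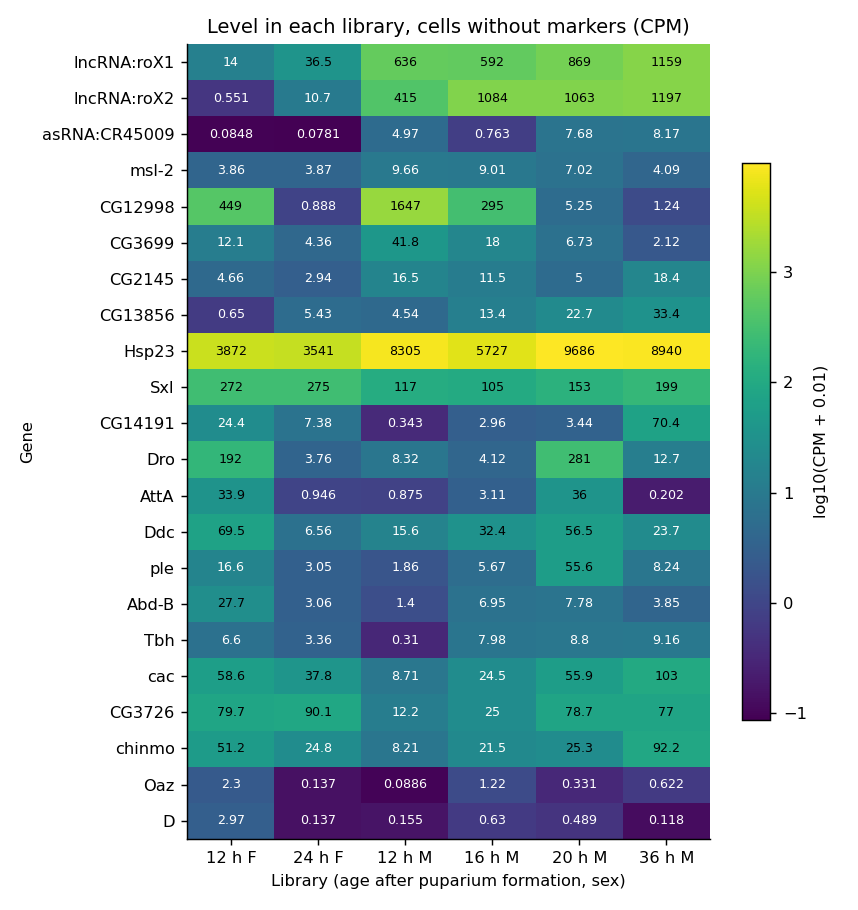
Numbers and colours give the CPM of 22 genes (rows) in cells without markers of the 6 libraries (columns, age in h and sex), on a log10 colour scale with 0.01 CPM added. The roX RNAs split the columns by sex. msl-2 is close at 36 h, with 4.09 CPM in that male beside 3.86 and 3.87 CPM in the 12 h and 24 h females. Dro and AttA are high in the 12 h female and the 20 h male, and Abd-B is highest in the 12 h female.

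The 12 h ratio was also set beside a change with age between libraries it does not share. Across 6439 genes, the log2 ratio of the 20 h to the 16 h male in cells without markers had a Spearman correlation of -0.49 and a Pearson correlation of -0.41 with the 12 h male to female ratio, so that genes higher in the 12 h female tended to be higher at 20 h than at 16 h. The 20 h to 16 h ratio followed gene span as well, with a Spearman correlation of 0.42. Within single span groups the Spearman correlation lay between -0.41 and -0.28. Other ratios between libraries outside the comparison gave weaker or opposite values. The Spearman correlation was -0.25 for the 36 h over the 20 h male (-0.13 to -0.05 within span groups) and 0.18 for the 24 h female over the 20 h male. The 16 h library carries another reporter, has a median of 5169 UMIs per cell, and the points are genes of the same 4 libraries. Whether the 2 libraries at 12 h differ in developmental progress was not tested.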

How the data were processed

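Single-cell RNA from pupal first tarsal segments was counted by the authors with Cell Ranger 7.0.0 on BDGP6, per the submitters' processing notes, and the deposited matrices hold raw UMI counts per gene and barcode, 12000 barcodes in each 12 h library. The sources used here do not say whether strand or introns entered counting, or whether doublets were removed before deposit. 2 further matrices have no sample here and were not used. Cells needed 500 genes and at most 10% mitochondrial UMIs. UMIs were summed per library, which gives CPM; the log2 ratio has 0.5 counts added to each sum, with exact binomial intervals for ratios, Poisson for CPM and Clopper-Pearson for shares (95%, counting error only). Doublets were kept, and removed by Scrublet in an alternative. Genes were placed on the Ensembl annotation of BDGP6, which located 16447 of 16496 features. The ratio, interval and call computations were tested on simulated data. Python 3.11.15, numpy 2.4.6, pandas 2.3.3, scipy 1.17.1, scanpy 1.11.5, matplotlib 3.10.9, R 4.3.3, and, for scaling factors alone, edgeR 4.0.16 and DESeq2 1.42.0 were used.

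With 1 library per sex no test was possible. The comparison and the 33 gene lists were chosen with earlier results of these data known. Genes named in the text are members of those lists, the 12 with the largest ratios in each direction in cells without markers, the 8 largest among genes found in at least 10% of cells, the 5 largest over all cells and the 4 largest in each marker class. Mitochondrial and rRNA genes and reporters were left out of these ranks. Overlapping partners (lncRNA:CR44999, FucTC, ome, stet) and WDY were picked after values were seen. The marker classes were also set after seeing the data. Alternatives changed the minimum of UMIs, the cell filters, the scaling, the marker gate and the depth.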

Additional observations from a re-analysis of the deposited data

Results flagged for a closer look

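CG12998, higher in the male in cells without markers, went in opposite directions in the marker classes. Its log2 ratio of male to female CPM was -2.14 in hemocyte-marker cells (115.4 and 508 CPM), 3.11 in muscle-marker cells (473 and 54.7 CPM) and 2.35 in glia-marker cells (534 and 105 CPM). CG3168, higher in the female in cells without markers, had a log2 ratio of 1.1 in hemocyte-marker cells (30.3 and 13.9 CPM) and -2.68 in neuron-marker cells (5.27 and 34.2 CPM). The differences between classes were not tested, since each class has 1 library per sex.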

How the results depend on the processing

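No paired analysis was possible because each sex has 1 library. No replicate could be left out for the same reason. At the minimum of 50 UMIs, 726 genes were called higher in the female over all cells, and 108 in the male and 534 in the female in cells without markers. With no minimum the calls were 1065 and 2640 over all cells and 913 and 2780 in cells without markers, and among list members 57 in the female over all cells, and 12 and 66 in cells without markers. In cells without markers the male-higher count was 97 under TMM scaling, 112 under median-of-ratios scaling, 100 with the gate at 3 markers and 91 with Mef2, nrv2 and elav dropped from the gate, the last chosen after seeing the data. Thinned to 2000 UMIs per cell, the counts were 72 and 141 over all cells (list members 6 and 23) and 32 and 111 in cells without markers (18 list members in the female). Cells without any marker UMI, 1218 male and 842 female, gave 21 male-higher and 16 female-higher calls of 1559 genes, which turns the order of the counts, and 3 and 3 among list members. The sign changed for alphaTub85E, at -0.0013 with 1085 male and 1129 female likely doublets removed, and for CG4914, at -0.27 in cells without any marker UMI; the cause was not tested. Of 1819 gene ratios, 1397 stayed within the counting interval of the reported ratio and 420 moved outside it with the same direction or within 2-fold. Depth limits genes under the minimum, and 1 library per sex limits every value.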
